A study of Mus musculus with 11 samples.

Results

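Hair colour in mice is set in the growing follicle by a switch between a pair of competing signals on the melanocyte. Pomc encodes the precursor of α-melanocyte-stimulating hormone, which activates the melanocortin 1 receptor (Mc1r), raises cAMP and favours black eumelanin, while the nonagouti gene (symbol a) encodes the agouti protein, a dermal papilla signal that blocks Mc1r and favours yellow pheomelanin. Corin, a serine protease of the dermal papilla, limits agouti activity. Atrn, which encodes the transmembrane protein attractin, and Mgrn1, which encodes a ubiquitin ligase, are both needed for agouti to act. These 6 genes and Gm14226, a predicted gene inside the a locus, were followed in whole skin, as 7 of the 49315 genes in the count table. The first 6 were chosen for their place in the pathway. They and the gene lists used below were chosen with earlier results of these data known. The values of a had been seen in an earlier analysis of these data. Gm14226 was selected on its measured counts, which were almost absent from skin collected on postnatal day 13 (P13), so its values are given as a description with no test.

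All 11 mice were Foxp3-DTR mice on a C57BL/6J background. They carry the diphtheria toxin (DT) receptor in the Foxp3 gene, so that DT kills Foxp3-expressing regulatory T cells (Tregs) throughout the body. The study used both sexes and did not record the sex of each mouse. The labels give PBS for 2 control mice, EarlyDT for 3 mice (ΔETreg), LateDT for 3 mice (ΔLTreg) and FullDT for 3 mice (ΔTreg), and each library came from 1 mouse. DT was given at 30 ng per g on P6 and P8 before harvest on P9 in ΔETreg mice, on P10 and P12 before harvest on P13 in ΔLTreg mice, and as 4 doses from P6 to P12 before harvest on P13 in ΔTreg mice. The study calls its control comparisons age-matched, but the labels hold both control mice in a single PBS group without a harvest day, so that the age of these libraries could not be read. The allele at the a locus is not given in the labels either, so reads of a are not taken as a measure of working agouti protein. The study describes the dorsal skin of its control mice as black in later life. ΔTreg and ΔLTreg skin shared a stated harvest day. Between ΔETreg skin and either of them, the DT schedule and the age at harvest cannot be told apart, and the same holds against control skin wherever the ages differ. The same 2 control libraries served in each comparison with control.

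Libraries held 23377571 to 34159435 counts. Keratinocyte markers summed to 10418 to 14613 CPM (counts scaled to the size of the library) per library, so that all libraries carried RNA of the epidermis. The Foxp3 transcript, which marks the targeted cells, was near the floor in every group, at 9 to 23 counts per library with overlapping groups, so whole-skin RNA gave no check of the depletion. Immune markers stood apart in ΔTreg skin, where the 7 T cell markers summed to 107 to 126 CPM against 19.6 to 32.1 CPM in the other groups, and the 6 macrophage markers to 419 to 560 CPM against 92.7 to 224 CPM. Myh4 and Pdgfra stood apart in ΔLTreg skin, while the sums of their marker lists did not. Myh4, a myosin of fast muscle fibres, was at 77.1 to 274 CPM in ΔLTreg skin. It was at 3 to 6.24 CPM in control and ΔETreg skin and at 19.3 to 74.8 CPM in ΔTreg skin. The 5 muscle markers summed to 1306 to 4166 CPM in ΔLTreg skin and to 902 to 2025 CPM in the other groups, which overlapped. Pdgfra, a fibroblast receptor, was at 15.7 to 32.5 CPM in ΔLTreg skin and at 48.2 to 69.8 CPM in the other groups. The 6 fibroblast markers, Pdgfra among them, summed to 8358 to 18287 CPM in ΔLTreg and 9843 to 11153 CPM in ΔTreg skin, which overlapped. By their means, Col1a1, Col1a2, Col3a1 and Lum were higher in ΔLTreg than in ΔTreg skin, and Dcn was lower. Krt1, a keratin of the differentiating epidermis, was lower than in control skin in both ΔLTreg (log2 fold change -1.5, adjusted p = 0.0141) and ΔTreg skin (-1.93, adjusted p = 0.000664), and the collagen genes Col1a1 (-1.02) and Col1a2 (-1.07) were lower in ΔTreg skin. The part of these markers in the changes described here was not tested. In bulk skin, fewer cells of a type and less RNA per cell cannot be told apart.

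Compared as RPKM (CPM per kilobase of exon), the agouti accessory genes were the most abundant of the 7 members in control skin. Mgrn1 was at 15.3 ± 0.279 RPKM (mean ± SD, n = 2), Atrn at 8.07 ± 0.274 RPKM, Mc1r at 5.67 ± 0.812 RPKM and Corin at 5.14 ± 0.0187 RPKM. Mc1r and Corin did not differ beyond their spread, since the Corin values of 5.13 and 5.16 RPKM lay between the Mc1r values of 5.09 and 6.24 RPKM. Gm14226 followed at 1.6 ± 0.275 RPKM. The ligand genes were far lower, a at 0.19 ± 0.0278 RPKM and Pomc at 0.142 ± 0.0129 RPKM, which corresponds to 5 to 7 reads per library.

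**Figure D1:**
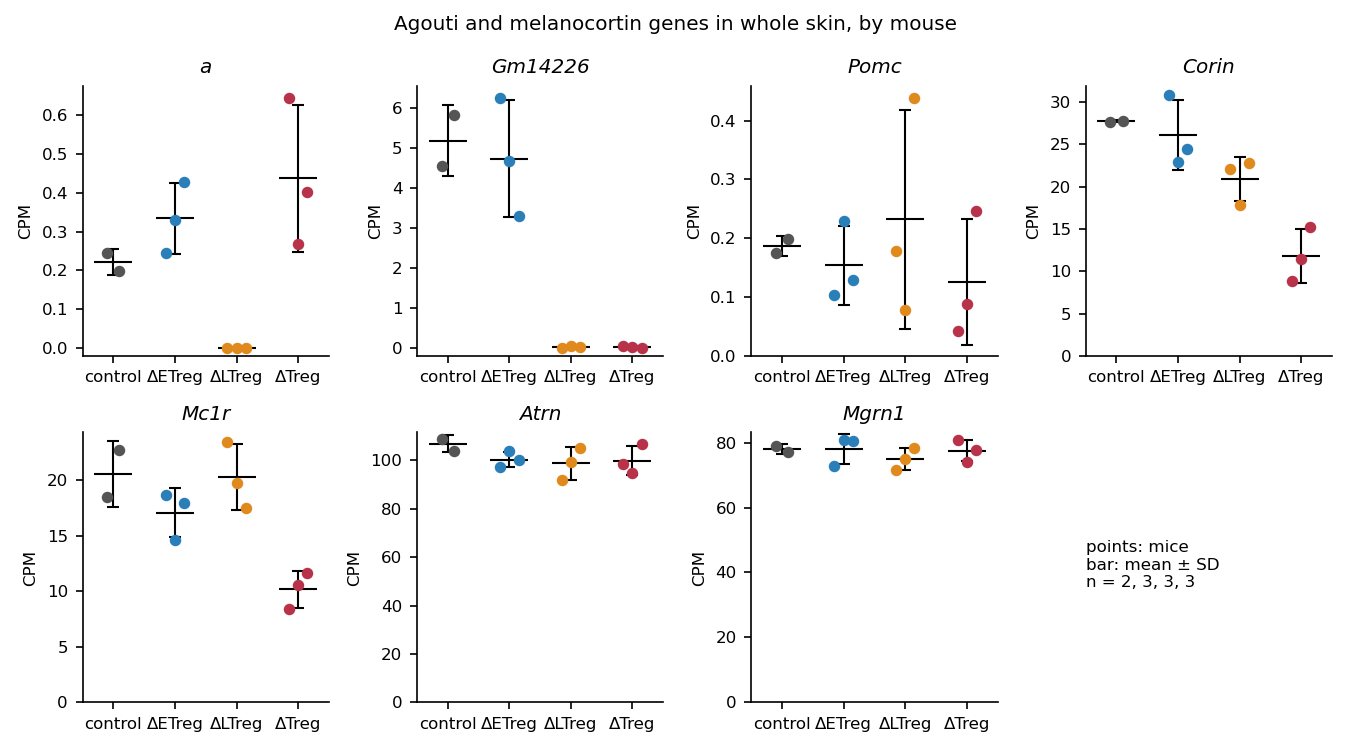
Level of each of the 7 genes in CPM (y axis, each panel with its own scale) in the 4 groups (x axis). Points are mice and bars are the mean ± SD (n = 2 control, 3 in each other group). The gene a is at 0 in the 3 ΔLTreg mice, Gm14226 is at 0 or near it in the ΔLTreg and ΔTreg mice, Corin and Mc1r are lowest in the 3 ΔTreg mice, and Atrn and Mgrn1 lie at similar levels in all groups.

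Counted over Corin, Mc1r, Atrn and Mgrn1, the 4 members with a test, 2 were called in ΔTreg against control skin, where 21.5% of all genes tested were called. In ΔTreg against ΔLTreg skin 2 were called beside 16.8% of all genes, and in ΔTreg against ΔETreg skin 2 were called beside 23.1%. With edgeR, none was called in ΔLTreg against control skin, beside 4.55% of all genes, or in ΔETreg against ΔLTreg skin, beside 6.38%. Nor was any called between ΔETreg and control skin, where 1 gene of the 18375 tested was called (0.00544%). In these last 3 comparisons no member of the 4 had an unadjusted p under 0.05, and DESeq2 called 0. Whether the members differ from all genes in these shares was not tested.

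Pomc (chr12:3954951-3960642, plus strand) was close to the limit of detection in skin. Control mice had 5 counts each, ΔETreg mice 3, 7 and 3, ΔLTreg mice 6, 2 and 14, and ΔTreg mice 1, 3 and 8. All groups overlapped, and the gene did not pass the filter on low counts, so that no difference was detectable at this depth. Of the 6 pituitary hormone and lineage markers, none passed the filter and the list summed to at most 0.343 CPM in a library. Of 7 genes for processing of POMC and similar prohormones, 5 were tested. Cpe, which encodes carboxypeptidase E, was higher in ΔTreg than in control skin (log2 fold change 0.43, SE 0.0949, adjusted p = 0.00826), and Pam, whose product amidates peptides, was lower (log2 fold change -0.7, SE 0.166, adjusted p = 0.0125). Neither passed between ΔTreg and ΔLTreg skin (Cpe 0.12 and Pam -0.19 on the log2 scale). Against ΔETreg skin, Cpe was higher (0.45, adjusted p = 0.00253) and Pam lower (-0.66, adjusted p = 0.00846) in ΔTreg skin. Cpe was also lower in ΔETreg than in ΔLTreg skin (-0.33, adjusted p = 0.0415), where Pam did not pass (0.47). Of all genes, 21.5% were called in ΔTreg against control, 23.1% in ΔTreg against ΔETreg and 6.38% in ΔETreg against ΔLTreg skin. Pcsk1, the first convertase of the precursor, passed in none of the 6 comparisons.

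The agouti ligand gene a (chr2:154791402-155051012, plus strand, 6 annotated transcripts) was read only a few times per library, with a gap in a single group. Control mice had 7 and 5 counts, ΔETreg mice 7, 10 and 10, ΔLTreg mice 0, 0 and 0, and ΔTreg mice 15, 9 and 13. The 3 ΔLTreg mice were the only mice without a read, and the 3 ΔTreg mice, which were of the same age, all had reads, with values that overlapped those of ΔETreg mice. The floor of 3 counts per library stood at 0.0894 to 0.118 CPM in ΔLTreg mice. The mean of a was 4.36-fold this floor in ΔTreg skin, 3.33-fold in ΔETreg skin and 2.21-fold in control skin. These ratios leave out the counting error of the few reads in the higher group, so they are a description and not a lower bound. The ΔTreg values of 0.267 to 0.643 CPM lay above the control values of 0.199 and 0.245 CPM. No test is given for a, because its values had been seen before and because it passed the filter on low counts only through the groups where it was higher. The mice without a read of a were also those with the lowest Pdgfra and the highest Myh4, and the part of these markers was not tested. Of its 1169 exonic bases, 147 are shared with an exon of Raly on the same strand.

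Upstream of the RefSeq start of a, the stretch before the annotated exon at that start is shown because Gm14226 begins a few kilobases beyond it (RefSeq, GRCm38.p6, chr2:155013320-155013471, plus strand). None of the motifs searched in the promoters, which are spelled out with Mc1r, was found in it.
a: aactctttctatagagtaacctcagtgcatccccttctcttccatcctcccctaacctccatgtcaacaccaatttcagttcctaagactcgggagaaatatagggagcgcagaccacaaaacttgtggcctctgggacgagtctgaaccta

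Gm14226 (chr2:155018266-155027104, plus strand, 2 exons) lies in an intron of a on the same strand and shares no exonic base with it. Its start is 4624 bases past the end of the nearest upstream exon of a, and the next exon of a begins 18507 bases after its end. Control mice had 130 and 146 counts, ΔETreg mice 179, 142 and 77, ΔLTreg mice 0, 1 and 1, and ΔTreg mice 1, 1 and 0. The 5 control and P9 mice all carried the transcript and the 6 mice harvested on P13 had at most a single read, with no overlap. For the mice given DT, low Gm14226 went with harvest on P13 and with a last dose on P12, which cannot be told apart. In CPM, control skin was at 5.18 ± 0.893 (n = 2) and ΔETreg skin at 4.73 ± 1.47 (n = 3), and these groups overlapped.

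**Figure D2:**
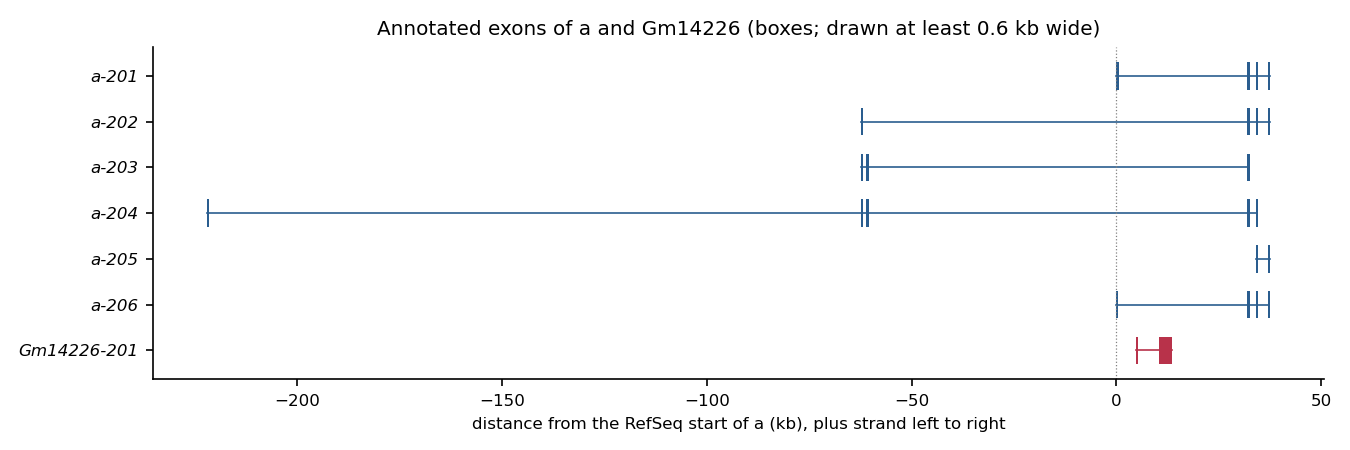
Annotated exons (boxes) and introns (lines) of the 6 transcripts of a and of Gm14226, against the distance in kb from the RefSeq start of a (x axis, dotted line at 0). Gm14226 starts 4.696 kb past that start, in the intron before the exons that the transcripts of a share at 32.042 kb and beyond.

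The pair diverged in ΔTreg skin, although the start of Gm14226 lies 4696 bases past the RefSeq start of a. ΔLTreg mice had no read of a and 0 or 1 of Gm14226, while ΔTreg mice had 9 to 15 counts of a and 0 or 1 of Gm14226. Part of the Gm14226 transcript is not unique: 14.3% of its 31-base words and 4.23% of its 75-base words also occur in annotated transcripts of other genes, whereas none of its 150-base words do. Of 23 other annotated genes within 250 kb of a, 14 were tested. In ΔLTreg against control skin, where 4.55% of all genes were called, Gm45609 alone of the 14 passed, at 0.542 against 1.51 CPM (log2 fold change -1.48, SE 0.232, adjusted p = 0.00648). In ΔTreg against control skin, with 21.5% of all genes called, 3 of the 14 passed, and all were lower. These were Gm45609 (log2 fold change -1.78, SE 0.239, adjusted p = 0.000411), Pxmp4 (-0.54, adjusted p = 0.00229) and Ahcy (-0.53, adjusted p = 0.00747). Gm45609, an antisense gene, overlaps the start of Ahcy on the other strand. Since no strand setting is stated for the counting, reads of these 2 genes cannot be told apart where they overlap. In ΔTreg against ΔLTreg skin, beside 16.8% of all genes, Pxmp4 (-0.54), Ahcy (-0.5) and Dynlrb1 (-0.16) were lower on the log2 scale. Neither Raly (adjusted p = 0.372) nor the adjoining Eif2s2 (adjusted p = 0.363) passed. Gm45609 was higher in ΔETreg than in ΔLTreg skin (0.94, adjusted p = 0.0323), beside 6.38% of all genes called. It was lower in ΔTreg than in ΔETreg skin (-1.25, adjusted p = 0.00245), beside 23.1%. In the latter, Pxmp4 and Ahcy were also lower and Chmp4b was higher.

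The genes whose log2 CPM profile was most like that of Gm14226 over the 11 libraries, among 13892 genes searched, were Phldb2 (Pearson r = 0.981), Selenbp1 (0.976) and Ndnf (0.967). Phldb2 was at 68.1 and 69.6 CPM in control and 70.3 to 76 CPM in ΔETreg skin, against 38.2 to 45.8 CPM in ΔLTreg and 41.4 to 44.1 CPM in ΔTreg skin. Like Gm14226 it was lower in all 6 mice harvested on P13, over a far smaller range. The profile of a was most like those of Myo1c (0.964), Azin2 (0.953) and Svep1 (0.944). Svep1 was lowest in ΔLTreg skin, at 10.7 to 16.6 CPM, and lay at 31.5 to 46.6 CPM in ΔTreg skin. These r values were picked as the highest of many and points share their libraries and groups.

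Corin (chr5:72300025-72504473, minus strand) was lowest in ΔTreg skin. It was at 27.7 and 27.8 CPM in control, 30.8, 22.9 and 24.5 CPM in ΔETreg, 22.1, 17.9 and 22.8 CPM in ΔLTreg, and 8.83, 11.4 and 15.2 CPM in ΔTreg mice. The ΔTreg values did not overlap with those of any other group. Against ΔLTreg skin of the same age the log2 fold change was -0.82 (SE 0.175, adjusted p = 0.0085), against ΔETreg skin -1.13 (SE 0.175, adjusted p = 0.000794) and against control skin -1.22 (SE 0.191, adjusted p = 0.00108). ΔLTreg values also lay below both control values, by a log2 fold change of -0.41 that did not pass (95% interval -0.82 to 0.00823, adjusted p = 0.257). The difference between ΔETreg and control skin was -0.0917 (95% interval -0.51 to 0.32). Among genes with a like profile, Frmd4a and Sox12 had the highest r (both 0.972).

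The Corin promoter is printed beside that of Mc1r because both genes were lower in ΔTreg skin. The 250 bases before the RefSeq start (GRCm38.p6, chr5:72504541-72504790, minus strand, written 5′ to 3′ along the gene) held no match to the motifs searched.
Corin: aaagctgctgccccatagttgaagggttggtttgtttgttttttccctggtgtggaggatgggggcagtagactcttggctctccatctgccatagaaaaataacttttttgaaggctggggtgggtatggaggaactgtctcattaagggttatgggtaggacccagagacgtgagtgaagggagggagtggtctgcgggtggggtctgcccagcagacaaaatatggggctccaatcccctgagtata

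Mc1r (chr8:123407107-123410744, plus strand, a single annotated exon) was likewise lower in ΔTreg skin than in each other group. It was at 18.5 and 22.7 CPM in control, 18.7, 14.6 and 18 CPM in ΔETreg, 23.5, 19.8 and 17.5 CPM in ΔLTreg, and 8.4, 10.6 and 11.7 CPM in ΔTreg mice. All 3 ΔTreg values were below the lowest of the other 8. The log2 fold change was -0.98 against ΔLTreg skin (SE 0.151, adjusted p = 0.00111), -0.74 against ΔETreg skin (SE 0.152, adjusted p = 0.00477) and -1.01 against control skin (SE 0.165, adjusted p = 0.00148). ΔLTreg and control skin overlapped (log2 fold change -0.0223, 95% interval -0.38 to 0.34), as did ΔETreg and control skin (-0.27, 95% interval -0.63 to 0.092). Of the 3638 exonic bases of Mc1r, 653 are shared with Gm38092 on the opposite strand, where reads cannot be assigned without a strand setting. Stard10 had the profile most like that of Mc1r (r = 0.981).

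The Mc1r promoter is shown because it held E-boxes of the kind that MITF, the master regulator of melanocytes, can bind. Both strands were searched for the E-boxes CACGTG and CATGTG, the TATA box TATAAA, the cAMP response half-site TGACG and the interferon-response pattern of GAAA repeated after any 2 bases. In the 250 bases before the RefSeq start (GRCm38.p6, chr8:123406832-123407081, plus strand), capitals mark a match to CATGTG at -62 to -57, read as CACATG, and another at -51 to -46.
Mc1r: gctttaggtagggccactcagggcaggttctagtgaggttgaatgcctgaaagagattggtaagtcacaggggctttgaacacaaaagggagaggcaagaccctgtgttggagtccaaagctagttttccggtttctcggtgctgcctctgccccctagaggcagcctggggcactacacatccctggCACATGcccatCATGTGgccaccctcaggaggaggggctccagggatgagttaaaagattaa

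Of 32851 RefSeq promoters of this length, 12.3% held CATGTG, 6.02% CACGTG, 12.4% TATAAA, 17.8% TGACG and 2.98% the GAAA repeat. Mgrn1 held CACGTG at -24 to -19, Pomc held TATAAA at -25 to -20, and Atrn held no match. Such a match is a description of letters and not of a bound site.

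Atrn (chr2:130906495-131030333, plus strand) and Mgrn1 (chr16:4886249-4938296, plus strand) passed in none of the 6 comparisons. Atrn lay at 104 to 109 CPM in control, 97.4 to 104 CPM in ΔETreg, 91.8 to 105 CPM in ΔLTreg and 94.7 to 107 CPM in ΔTreg mice. Mgrn1 lay at 77 to 79 CPM in control, 72.8 to 80.8 CPM in ΔETreg, 71.7 to 78.3 CPM in ΔLTreg and 74.1 to 80.7 CPM in ΔTreg mice. ΔTreg and ΔLTreg skin overlapped for both genes, and the intervals were narrow. The difference was 0.0159 on the log2 scale for Atrn (95% interval -0.12 to 0.15) and 0.0475 for Mgrn1 (95% interval -0.0735 to 0.17).

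**Figure D3:**
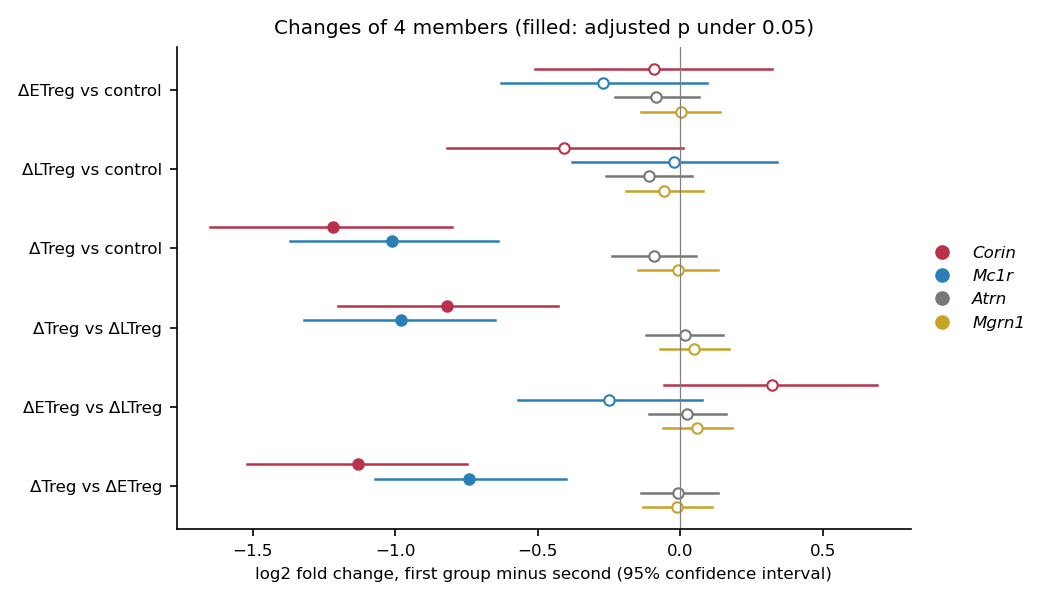
Log2 fold change (x axis) of Corin, Mc1r, Atrn and Mgrn1 in each of the 6 comparisons (y axis), with 95% confidence intervals as lines and filled points where the adjusted p is under 0.05. Corin and Mc1r are filled in the 3 comparisons of ΔTreg skin, between -1.22 and -0.74, and the Atrn and Mgrn1 points lie near 0.

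Downstream of the receptor, melanin genes were lower in ΔTreg skin. Of 12 pigment genes, 9 were lower and none higher in ΔTreg than in ΔLTreg skin, with a median log2 fold change of -0.66 beside -0.00436 over all genes, of which 6.11% were lower. They included Tyr, the rate-limiting enzyme of melanin synthesis (-0.74, SE 0.111, adjusted p = 0.001), Oca2 (-0.74), which sets the pH of the melanosome, the melanosome transporter Slc45a2 (-0.8) and Mlana (-0.89), a melanosome protein. Tyr was at 49.1, 55.1 and 52.9 CPM in ΔTreg mice, below the 81.7 to 93.2 CPM of ΔLTreg mice. Mitf did not pass (log2 fold change 0.14, 95% interval -0.0491 to 0.34), and nor did Rab27a (-0.0581) or Slc7a11 (-0.13, 95% interval -0.4 to 0.15). Slc7a11 encodes the cystine transporter that feeds pheomelanin synthesis, and its values of 18.2 to 24.5 CPM in ΔTreg mice overlapped with the 21.3 to 25.6 CPM of ΔLTreg mice. In ΔTreg against control skin 10 of the 12 were lower (median -0.88), beside 9.39% of all genes, and in ΔTreg against ΔETreg skin 7 were lower (median -0.47), beside 9.81%. None passed in ΔETreg or ΔLTreg against control skin with edgeR or with DESeq2. An unadjusted p under 0.05 was found for 9 of the 12 in ΔETreg skin (median -0.36), beside 4.75% of all genes, and for 2 of the 12 in ΔLTreg skin (median -0.19), beside 20.2% of all genes.

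**Figure D4:**
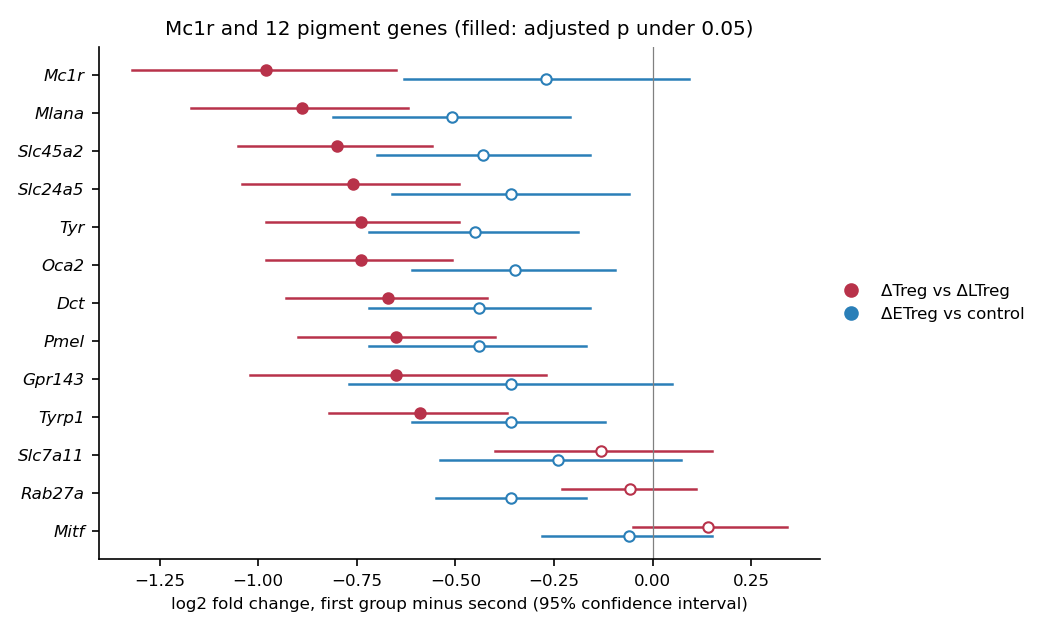
Log2 fold change (x axis) of Mc1r and the 12 pigment genes (y axis) for ΔTreg against ΔLTreg skin and for ΔETreg against control skin, with 95% confidence intervals as lines and filled points where the adjusted p is under 0.05. In the first, Mc1r and 9 pigment genes are filled and negative, while Slc7a11, Rab27a and Mitf are open. In the second, all points are open.

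Of 8 further melanocortin receptor and accessory genes, 5 were tested. Mc5r, the receptor of sebaceous glands, was lower in ΔTreg than in control skin (log2 fold change -0.38, SE 0.0996, adjusted p = 0.019), beside 21.5% of all genes called. It lay at 18 and 20 CPM in control, 14.6 to 16.5 CPM in ΔETreg, 14.9 to 18.1 CPM in ΔLTreg and 13.9 to 15.6 CPM in ΔTreg skin. Against control skin it did not pass in ΔETreg (-0.31) or ΔLTreg skin (-0.24). Mc2r, the receptor for ACTH, was lower in ΔTreg than in ΔETreg skin (-0.99, SE 0.311, adjusted p = 0.0396), from a low level of 0.543 ± 0.135 CPM (n = 3). No gene of the list passed between ΔTreg and ΔLTreg skin with edgeR or DESeq2, or had an unadjusted p under 0.05. Agrp, the agouti-related ligand gene, lay at 0.428 to 0.863 CPM over all 11 mice and passed in no comparison. Of 19 genes of the cAMP arm, 1 was higher and 1 lower in ΔTreg than in ΔLTreg skin, where 10.7% of all genes were higher and 6.11% lower. These were Pde4b, a cAMP phosphodiesterase (log2 fold change 0.57, SE 0.0834, adjusted p = 0.00082), and Prkar2b, a regulatory subunit of protein kinase A (-0.32, SE 0.0847, adjusted p = 0.0236). Against control skin, where 12.1% of all genes were higher and 9.39% lower, 3 of the 19 were higher, among them Pde4b (0.87) and the coactivator gene Ppargc1a (0.63), and 3 lower, among them Gnas (-0.35), which encodes the G protein subunit that couples Mc1r to adenylyl cyclase, and the transcription factor gene Creb1 (-0.23). Ppargc1a was also higher in ΔLTreg than in control skin (0.61, adjusted p = 0.0269), as the 1 gene of the 19 called there, beside 4.55% of all genes. DESeq2 called 0 of the 19 there. Between ΔTreg and ΔLTreg skin Ppargc1a did not pass (0.0116, adjusted p = 0.96). Against ΔETreg skin 3 of the 19 were higher in ΔTreg skin and 3 lower, beside 13.2% and 9.81% of all genes. Pde4b is also expressed by leukocytes, whose markers were raised in ΔTreg skin, and the part of these cells was not tested.

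Of 8 melanocyte markers, 6 were lower in ΔTreg than in ΔLTreg skin, beside 6.11% of all genes. Of the 8, 6 are also among the pigment genes. Kit and the lineage factor Sox10 lie outside the pigment list and are named here after their values were seen. Sox10 was lower (log2 fold change -0.4, SE 0.0982, adjusted p = 0.0181), while Kit (-0.25, adjusted p = 0.0657) and Mitf (0.14) did not pass. The sum of the 8 markers was 810.2 to 844 CPM in ΔTreg mice against 1154 to 1332 CPM in ΔLTreg mice. Set against the mean log2 CPM of these markers, Mc1r was at -3.16, -2.81 and -2.64 in ΔTreg mice, and at -2.23, -2.32 and -2.6 in ΔLTreg mice. The groups did not overlap, although their nearest values were -2.64 and -2.6. The mean of the markers includes Kit and Mitf, and a ratio without them was not taken. The mean difference between the groups was -0.49 on the log2 scale (two-sided exact permutation test, p = 0.1, the smallest that 3 against 3 mice allow). Adjusted over 12 such tests the p was 0.3. The difference was -0.44 against ΔETreg skin (exact permutation p = 0.1) and -0.36 against control skin (exact permutation p = 0.2).

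Of 17 dermal papilla markers, 1 (Sox18) was lower in ΔTreg than in ΔLTreg skin, a share near the 6.11% of all genes, and their sums of 239 to 265 and 231 to 255 CPM overlapped. Against control skin, where they summed to 353 and 357 CPM, 6 were lower in ΔLTreg and 10 in ΔTreg skin, beside 2.69% and 9.39% of all genes. Hhip, which binds hedgehog ligands, was lower in both (log2 fold change -0.94 and -0.85). Set against these markers, Corin was at 0.72, 0.98 and 1.3 in ΔTreg mice, below the 1.83, 1.51 and 1.96 of ΔLTreg mice and the 1.87, 1.45 and 1.7 of ΔETreg mice. The mean difference was -0.77 on the log2 scale against ΔLTreg skin and -0.67 against ΔETreg skin (exact permutation p = 0.1 for each, 0.3 after adjustment). Against control skin it was -0.68 (exact permutation p = 0.2). The dermal papilla markers include genes that other fibroblasts also express.

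**Figure D5:**
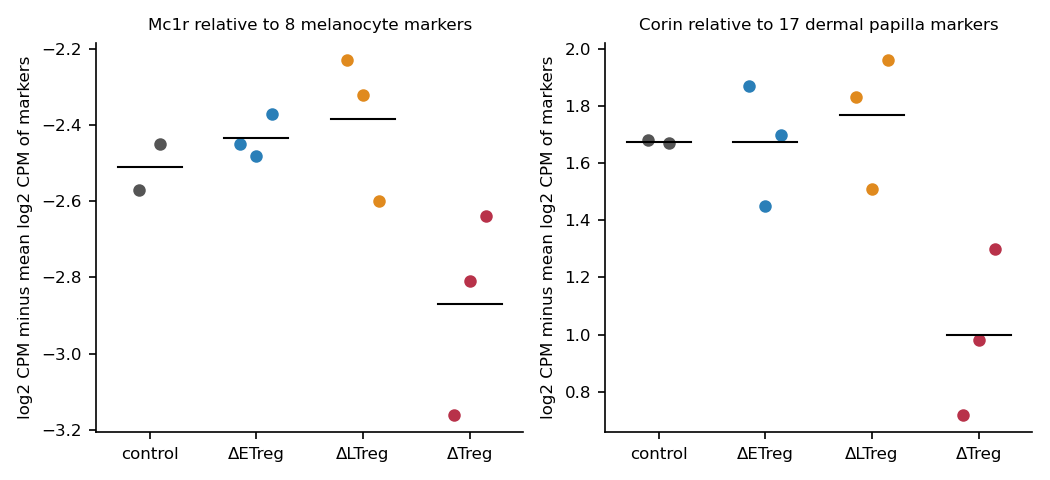
Log2 CPM of Mc1r minus the mean log2 CPM of 8 melanocyte markers (left) and of Corin minus that of 17 dermal papilla markers (right), by group (x axis). Points are mice and lines are means. The ΔTreg mice lie between -3.16 and -2.64 on the left and between 0.72 and 1.3 on the right, below all other mice in both panels.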

How the data were processed

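Whole skin of 11 mice was sequenced, 1 library per mouse, and all libraries carry the same batch label. The authors ran Trimmomatic 0.36 and then STAR 2.5.2b against GRCm38, and counted reads falling uniquely on exons with featureCounts (Subread 1.5.2). The authors deposited raw counts of 49315 genes without normalization. The strand setting and annotation release are not given in the sources used here. Groups follow the treatment label. Replicate numbers were given in accession order. The labels name separate libraries, and the study's methods separate mice.

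Counts were tested in R 4.3.3 with edgeR 4.0.16. The filterByExpr function left 18375 genes, TMM scaled the libraries, and 1 quasi-likelihood model over all 11 libraries gave 6 pairwise comparisons, with Benjamini-Hochberg adjustment over all genes tested and a threshold of 0.05. Each SE was taken as the absolute log2 fold change divided by √F. TMM factors enter the CPM, and its log2 form has a prior count of 2. RPKM uses exon lengths of GENCODE M21, which is on GRCm38, as do the coordinates and overlaps. Ratios to marker lists were tested by exact permutation. Promoters come from RefSeq GRCm38.p6, and those of 6 members matched. Alternatives were DESeq2 1.42.0, other scalings and filters, the 2 groups alone, another prior count and each mouse left out. The scripts were tested on simulated data with 200 changed genes.

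The members and lists were chosen with earlier results of these data known. Genes named are the members, the members of the lists with their test results, the genes most like a member, and the neighbours of a within 250 kb. Replicate pairs differed by more than counting noise (median chi-square 0.988 to 3.24 per gene, 0.455 expected). Intervals of log2 fold changes are at a confidence level of 95%. The floor of 3 counts per library covers only counting error, and only in the group without reads. Adjusted p-values rest on the assumptions of the model with 2 or 3 mice per group.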

Additional observations from a re-analysis of the deposited data

How the results depend on the processing

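Corin and Mc1r stayed lower in ΔTreg than in ΔLTreg, ΔETreg and control skin, past the threshold, under every alternative run. Against ΔLTreg skin the log2 fold change ranged from -1.04 to -0.66 for Corin and from -1.09 to -0.87 for Mc1r. The number of members called in ΔLTreg against control skin, 0 of 4 in the report, was 1 without a filter beyond 1 count, where Corin was added (adjusted p = 0.0251). No other alternative run changed a count of members called.

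Differences near 0 changed sign. Atrn in ΔTreg against ΔLTreg skin was -0.00757 with library size only. With a mouse left out, log2 fold changes had these ranges. Atrn spanned -0.0402 to 0.0675 in ΔTreg against ΔLTreg, -0.0281 to 0.0814 in ΔETreg against ΔLTreg and -0.0569 to 0.0294 in ΔTreg against ΔETreg skin. Mgrn1 spanned -0.037 to 0.0213 in ΔTreg and -0.0227 to 0.0533 in ΔETreg against control, and -0.0585 to 0.0209 in ΔTreg against ΔETreg skin. Mc1r spanned -0.16 to 0.13 in ΔLTreg and Corin -0.23 to 0.0117 in ΔETreg against control skin. The ratio of Mc1r to its markers spanned -0.16 to 0.0286 in ΔETreg against ΔLTreg skin. That of Corin spanned -0.0995 to 0.11 in ΔETreg against control (0.00366 with a prior count of 0.5), -0.0071 to 0.22 in ΔLTreg against control and -0.22 to 0.0193 in ΔETreg against ΔLTreg skin. The cause was not tested.

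Genes called over the whole table varied more. For ΔETreg against control skin, 1 gene became 54 without a filter, 18 with DESeq2, 0 with the 2 groups only or with at least 10 counts, and 0 to 5 with a mouse left out. For ΔLTreg against control skin, 836 became 1790 without a filter and 154 with the 2 groups only, and for ΔETreg against ΔLTreg skin 1173 became 2173 and 540. With a mouse left out these were 297 to 896 and 346 to 1163, and the lowest counts were 2038 for ΔTreg against control and 1980 for ΔTreg against ΔLTreg skin. No paired analysis was possible because the labels give no replicate numbers within groups. Depth limits a and Pomc, read at most 15 times per library.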
